A study of Mus musculus with 12 samples.

Results

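The nuclear genes for subunits of the mitochondrial respiratory chain were followed in sorted bone osteoblasts and endothelial cells of mice with and without bone tumors. A gene was included if its single symbol in the array's annotation began with Ndufa, Ndufb, Ndufc, Ndufs or Ndufv and a digit, with Cox and a digit from 4 to 8, with Uqcr or with Atp5, or was Sdha, Sdhb, Sdhc or Sdhd. This rule gave 81 of 19937 genes, of which 79 were bright enough to be tested among 12430 genes. They comprise 35 genes of complex I, 4 of complex II, 8 of complex III, 17 of complex IV (15 tested, without Cox7b2 and Cox8c) and 17 of complex V. The rule uses no measured difference between groups; brightness only picks 1 probe set per gene.

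The respiratory chain sits in the inner mitochondrial membrane. Complex I oxidises NADH and complex II succinate, complex III passes their electrons to cytochrome c, and complex IV hands them to oxygen. Complexes I, III and IV pump protons, and complex V, the ATP synthase, uses the proton gradient to make ATP. Most subunits are encoded in the nucleus, and a few have alternative isoforms that replace the common subunit in muscle, in testis or at low oxygen. Osteoblasts, the cells that form bone matrix, and endothelial cells, which line blood vessels, are both known to rely heavily on glycolysis besides respiration.

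All mice were female NOD-SCID animals, an immunodeficient strain that lacks T and B lymphocytes and keeps macrophages and neutrophils. The tumor-bearing groups had been given 200000 cells of MDA-MB231 scp1833, a human breast cancer line, into the heart, and tumors were followed in the long bones for about 2 weeks, while the control groups were tumor-free. Osteoblasts were sorted from digested long bones as cells negative for GFP, TR119, CD45, SCA1 and CD31 and positive for CD51, and endothelial cells as cells negative for the first 3 of these and positive for SCA1 and CD31. Each of the 4 groups has 3 arrays labelled as biological replicates, and neither the ages of the mice nor any pooling of mice per array is given in the sources used here. P-values therefore measure the spread between these samples.

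Of the 81 genes, 66 have a promoter in the RefSeq table of mouse build GRCm38.p6, 71 windows in all, each running from 250 bases before to 50 bases after the start of the gene. The letters GCATGCGC, the core of the sequence bound by NRF1, a transcription factor of nuclear genes for mitochondrial proteins, occurred on either strand in 10 of the 71 windows (14.1%) and in 891 of all 32851 windows (2.71%). The YY1 core AAGATGGC occurred in 10 of 71 (14.1%) against 2.75% of all windows, and the ETS core CCGGAAGT of GABP, also called NRF2, in 5 of 71 (7.04%) against 3.89%. These shares describe letters in the windows and were not tested. Stretches around the NRF1 core are shown for 4 genes, 2 of which (Atp5k and Ndufa8) differed between the cell types below. Capitals mark the NRF1 core. In Atp5k and Cox6a1 the match on each strand overlaps the other, so the capitals run to 10 letters. The stretches are on the minus strand of chr5:108434414-108434475 (Atp5k), chr2:36049339-36049372 (Ndufa8) and chr5:115349085-115349146 (Cox6a1) and on the plus strand of chr4:140961191-140961250 (Sdhb), and each is written 5′ to 3′ toward the start of its gene.
Atp5k: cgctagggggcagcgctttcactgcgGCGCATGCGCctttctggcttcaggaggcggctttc
Ndufa8: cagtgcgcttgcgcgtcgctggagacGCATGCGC
Cox6a1: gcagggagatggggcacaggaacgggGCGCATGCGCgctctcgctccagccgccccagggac
Sdhb: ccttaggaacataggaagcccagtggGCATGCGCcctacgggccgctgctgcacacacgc
Counted from the start of the gene, the capitals begin at position -50 in Atp5k, -8 in Ndufa8, -162 in Cox6a1 and -54 in Sdhb. The median log2 tumor difference of the members with the NRF1 core was -0.08 against -0.12 without it in osteoblasts, and -0.17 against -0.22 in endothelial cells. With and without the YY1 core it was -0.38 and -0.09 in osteoblasts and -0.17 and -0.21 in endothelial cells, and with and without the GABP core 0.10 and -0.12, and -0.21 in both. These medians rest on 5 or 10 genes with a core and were not tested.

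Values are log2 expression per probe set, so a difference of 1 is 2-fold, and a level of one gene cannot be set against that of another. The median of all probe sets was 5.21 to 5.41 per array. The endothelial marker list (6 of 6 genes measured) averaged 10.2 to 10.6 on the endothelial arrays and 4.67 to 6.04 on the osteoblast arrays, and the osteoblast list (7 of 8 measured) 8.82 to 10.3 on osteoblast and 5.66 to 6.18 on endothelial arrays. The 3 tumor-free osteoblast arrays stood apart from each other, with replicate correlations of 0.867 to 0.908 against 0.946 to 0.969 in the other groups. Their macrophage list (7 of 7 genes) averaged 4.91, 9.17 and 8.64 on replicates 1, 2 and 3, their neutrophil list (7 of 7) 6.03, 8.26 and 7.83, and their chondrocyte list (6 of 6) 10.0, 8.49 and 6.47. In osteoblasts of tumor-bearing mice these lists lay at 4.95 to 7.53, 5.55 to 6.92 and 9.90 to 10.7, and in endothelial cells at 5.71 to 6.01, 5.28 to 6.51 and 5.42 to 6.41. Macrophages and neutrophils carry CD45, and the osteoblast sort took cells negative for it. What part such other cells have in the values below was not tested. Counts of called members that rest on tumor-free osteoblasts are given with and without single arrays.

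In osteoblasts no respiratory chain gene passed the threshold between tumor-bearing and tumor-free mice. With limma, 0 of 79 had an adjusted p under 0.05, where 4.59% of all genes tested did, and 14 had an unadjusted p under 0.05, 1 higher and 13 lower (14.6% and 9.88% of all genes). The median log2 difference, tumor-bearing minus tumor-free, was -0.09, with 31 genes above 0 and 48 below, against 0.00 for all genes tested. The 95% interval of the difference lay within 2-fold in either direction for 53 of the 79 genes and within 1.5-fold for 17. In whole-population RNA such as this, fewer cells of a type and less RNA per cell cannot be told apart.

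**Figure D1:**
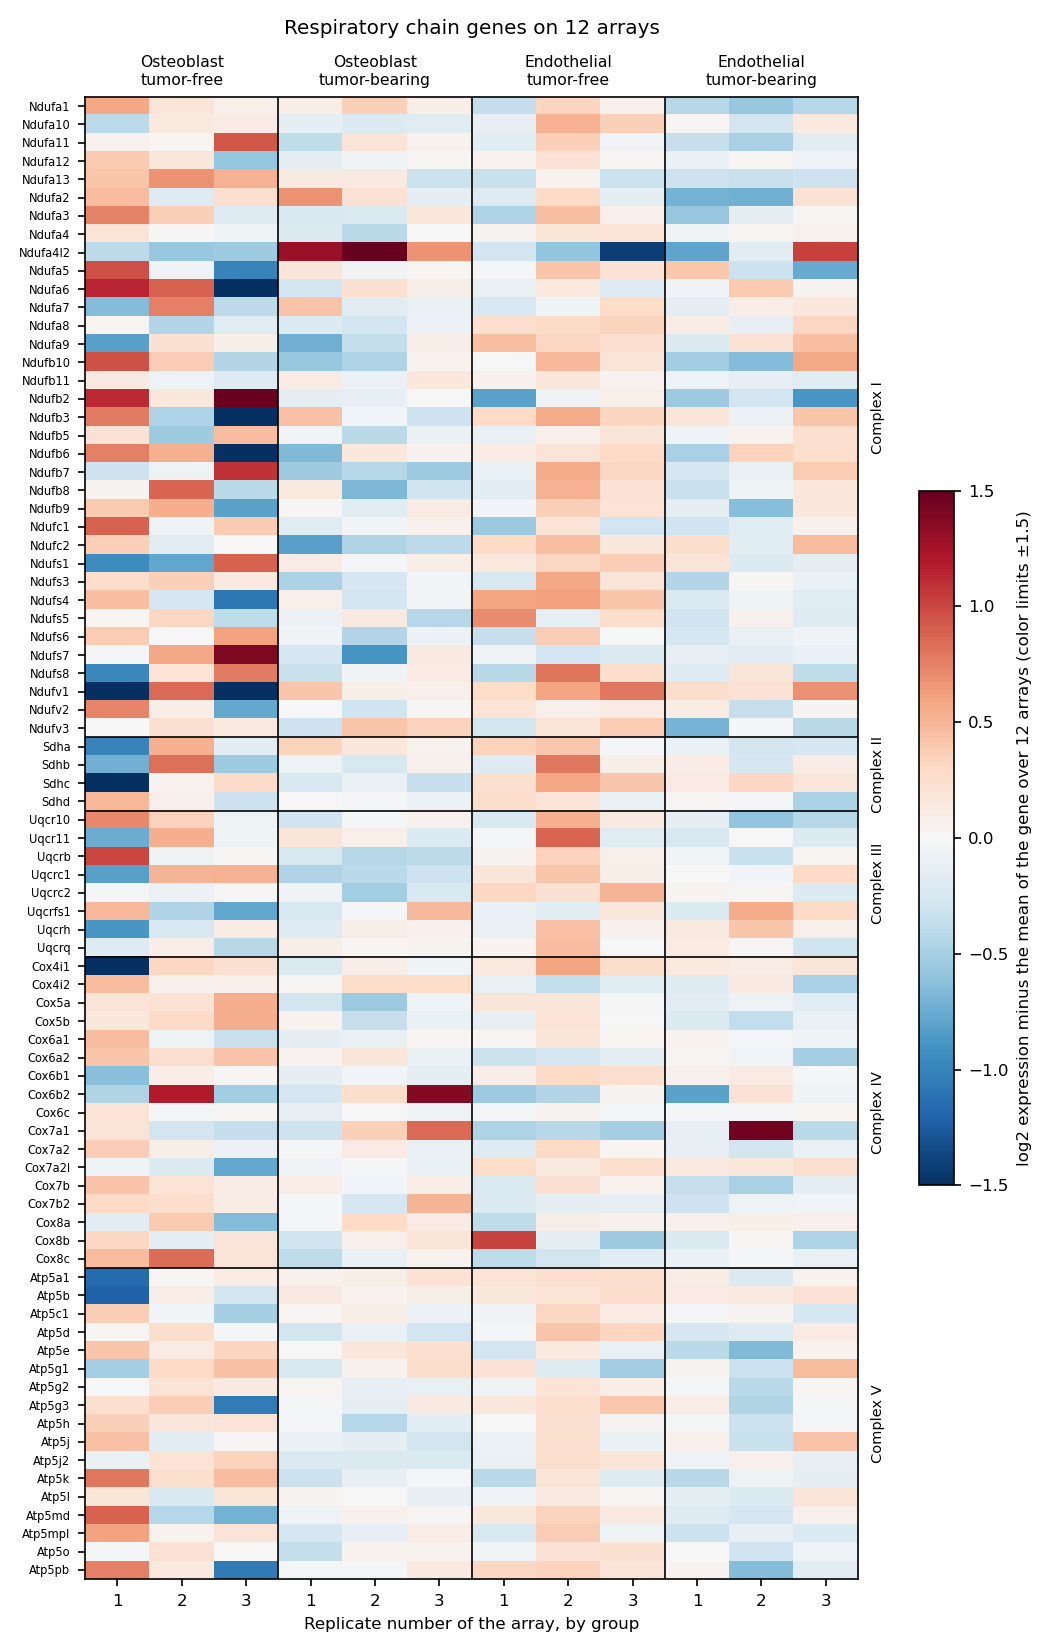
Log2 expression of the 81 respiratory chain genes (rows, by complex) on 12 arrays (columns, by group and replicate), each as its difference from the gene's own mean over the arrays, with colors limited to ±1.5. The 3 tumor-free osteoblast columns hold most of the strong colors and differ from each other, and Ndufa4l2 is the row that is high on all 3 osteoblast arrays of tumor-bearing mice.

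Ndufa4l2 had the widest osteoblast difference of the 79 genes. It encodes a paralogue of NDUFA4 that is known as a target of the hypoxia factor HIF-1. Its log2 expression was 5.84, 5.67 and 5.70 on the tumor-free osteoblast arrays and 7.53, 7.94 and 6.90 on those of tumor-bearing mice. All 3 tumor-bearing values lay above all 3 tumor-free values, a log2 difference of 1.72 ± 0.44 (SE) or 3.30-fold, with an adjusted p of 0.0510 that just missed the threshold. It passed in 8 of 23 alternative analyses, with adjusted p between 0.0280 and 0.236, and was positive in all 23. In endothelial cells it stood at 5.96, 5.63 and 4.82 without tumors and at 5.44, 6.08 and 7.25 with them, groups that overlap (log2 difference 0.79 ± 0.44 SE, adjusted p = 0.817). The 2 tumor differences differed by -0.93 ± 0.62 (SE, adjusted p = 0.463), so the data do not separate them. Ndufa4l2 is also known from pericytes. Their marker list (6 of 6) averaged 6.76 to 7.55 in tumor-free osteoblasts and 6.89 to 7.74 with tumors, with 3 of 6 genes above 0. Kcnj8, a channel subunit, fell 2.58-fold (adjusted p = 0.0208), while the mean of Cspg4, a proteoglycan, was 6.90 without and 8.01 with tumors and that of Pdgfrb, a growth factor receptor, 7.48 and 8.14, neither of which passed. The immediate early list (9 of 9 genes, such as Fos, Egr1 and Nr4a1), which marks recent stimulation or stress, averaged 9.06, 8.51 and 7.83 in tumor-free osteoblasts and 9.50 to 9.65 with tumors, with 9 of 9 genes above 0 and 2 called, Nr4a1 and Fosb. The chondrocyte list had 6 of 6 genes above 0 with tumors in osteoblasts, with a median of 1.97. The part of these lists in the Ndufa4l2 difference was not tested.

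NDUFA4 itself is grouped here with complex I by its symbol, although it is now counted as a subunit of complex IV. Ndufa4 was at 10.88, 10.70 and 10.60 in tumor-free osteoblasts and at 10.48, 10.28 and 10.68 with tumors (log2 difference -0.25 ± 0.14 SE, adjusted p = 0.307). The groups overlap, and the 95% interval of the difference ran from -0.57 to 0.07. In endothelial cells it was at 10.72, 10.86 and 10.88 without and 10.63, 10.69 and 10.74 with tumors, a difference of -0.13 ± 0.14 (SE). So the paralogue and the common subunit had differences of opposite sign in osteoblasts, of which neither passed.

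Of the 35 complex I genes, 7 were lower with tumors at an unadjusted p under 0.05, where 9.88% of all genes tested were. Ndufb2, an accessory subunit of the membrane arm, was at 7.99, 7.03 and 8.36 in tumor-free osteoblasts and at 6.73, 6.75 and 6.86 with tumors, a log2 difference of -1.01 ± 0.33 (SE, adjusted p = 0.10). Every tumor-bearing value lay below every tumor-free value, but the tumor-free arrays spanned more than 1 log2 unit. Ndufs7, which holds the iron-sulfur cluster next to the quinone site, was at 7.01, 7.61 and 8.44 and then 6.78, 6.15 and 7.17, which overlap (-0.99 ± 0.33 SE, adjusted p = 0.109). Ndufa13, an accessory subunit also known as GRIM-19, was at 8.20, 8.46 and 8.31 and then 7.93, 7.92 and 7.46 (-0.55 ± 0.17 SE, adjusted p = 0.0852). The 6 core subunits, most of which carry redox centers, had a median of -0.10 and the other 29 one of -0.11. The median over the 35 complex I genes per array was 8.58, 8.46 and 8.19 without and 7.79, 7.94 and 8.02 with tumors, groups that do not overlap. The same medians of complexes II, III, IV and V overlapped between the osteoblast groups. The median of the differences of the 35 single genes was -0.11, a smaller shift than that of the array medians. The shift of the array medians was not tested.

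In complex IV, Cox5a, a structural subunit around the catalytic core, came closest to the threshold. It was at 9.08, 9.10 and 9.43 in tumor-free osteoblasts and at 8.60, 8.34 and 8.82 with tumors, a log2 difference of -0.61 ± 0.16 (SE, adjusted p = 0.0562). Cox5b, another subunit of complex IV, was at 10.31, 10.43 and 10.69 and then 10.20, 9.81 and 10.05 (-0.46 ± 0.16 SE, adjusted p = 0.127). In both genes the tumor-bearing arrays lay below the tumor-free arrays without overlap. In complex V, Atp5k, the e subunit of the membrane part, was at 10.52, 9.96 and 10.19 and then 9.41, 9.60 and 9.71 (-0.65 ± 0.20 SE, adjusted p = 0.0856). The 9 tested genes of the peripheral stalk and membrane parts outside the c ring had a median of -0.27, and the 3 c-ring genes one of -0.04. The 5 genes of the F1 part had a median of 0.07. Among them Atp5a1 and Atp5b were at 0.47 and 0.55 (adjusted p = 0.318 and 0.223), Atp5c1 at 0.07, and Atp5d and Atp5e at -0.30 and -0.15. Tumor-free osteoblast replicate 1 was the lowest of its group for Atp5a1 (8.33, then 9.50 and 9.59) and Atp5b (8.96, then 10.27 and 9.89). In both genes the tumor groups overlap. In complex III, Uqcrb, a small quinone-binding subunit, was at 10.23, 9.15 and 9.25 and then 8.99, 8.80 and 8.84 (-0.67 ± 0.25 SE, adjusted p = 0.146).

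Across all complexes the osteoblast groups did not overlap for 15 genes that were lower and 1 that was higher with tumors, where 12.3% of all genes tested did so in each direction. The 15 are Ndufa13, Ndufb2, Ndufb7, Ndufc2, Ndufs3 and Ndufs6 of complex I, Uqcrb of complex III, Cox5a, Cox5b, Cox6a2 and Cox7b of complex IV, and Atp5d, Atp5h, Atp5j2 and Atp5k of complex V. The medians by complex were -0.11 for complex I, 0.11 for II, -0.06 for III, -0.09 for IV and -0.14 for V. Members are brighter than most genes: among the 7961 genes that pass a stricter brightness filter the median difference was 0.15, against -0.09 for the 75 members in it. Which members pass depends on single arrays. The 4.59% of all genes called is the share with all 12 arrays, and the shares without single arrays are not given here. Without tumor-free osteoblast replicate 1, 5 genes passed (Ndufa4l2 and Atp5md higher, Cox5a, Ndufs7 and Uqcrc1 lower). Without replicate 2 it was Ndufv1 (higher) and Ndufb2 (lower), and without replicate 3 Ndufa6 (higher) and Ndufs1 (lower). Leaving out osteoblast replicate 3 of tumor-bearing mice gave Cox5a, and leaving out endothelial replicate 1 or 3 of tumor-bearing mice gave Ndufa4l2. With replicate 1 left out of the tumor-free groups of both cell types it was 4 genes, and 0 to 3 passed under the other settings given in the closing section. Other lists also held more calls without tumor-free osteoblast replicate 1, such as 8 of 15 glycolysis genes against 5 with all arrays.

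**Figure D2:**
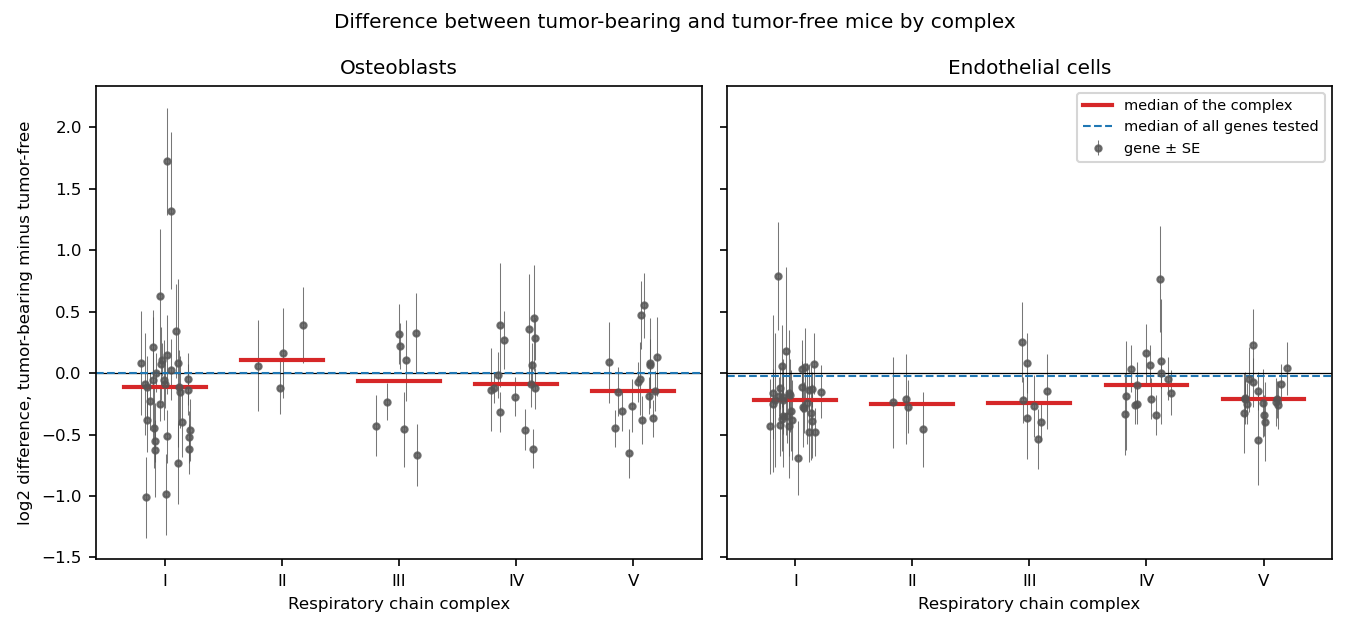
Log2 difference between tumor-bearing and tumor-free mice for each of the 79 tested genes (points, with SE as bars), by complex, in osteoblasts (left) and endothelial cells (right). Red lines are the median of each complex and the blue dashed line the median of all genes tested. The endothelial medians run from -0.25 to -0.10 and lie below 0 in all 5 complexes, while in osteoblasts complex II is above 0.

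In endothelial cells the tumor-bearing values were lower for most members, and none passed the threshold. With limma 0 of 79 genes passed, where 0.0241% of all genes tested (3 genes) did, and 3 genes had an unadjusted p under 0.05, all lower (3.64% of all genes were lower and 3.28% higher at that level). The difference was below 0 for 64 of 79 genes (81.0%) and for 53.9% of all genes tested. The median was -0.21, against -0.02 for all genes and -0.06 for the 7961 brighter genes. The 95% interval lay within 2-fold for 53 of the 79 genes and within 1.5-fold for 19. These intervals use 1 spread per gene for all 4 groups, so they also hold the spread of the osteoblast arrays. The median SD of the members was 0.44 in tumor-free osteoblasts, against 0.19 and 0.20 in endothelial cells without and with tumors. The median over the 79 genes was 8.82, 8.89 and 8.80 on the 3 tumor-free arrays and 8.47, 8.35 and 8.71 on those of tumor-bearing mice, so that every tumor-bearing array lay below every tumor-free array. The median of all genes tested stood at 6.44 to 6.49 and 6.42 to 6.43 on the same arrays. In osteoblasts the same median overlapped between groups, at 8.72, 8.78 and 8.43 without and 8.35, 8.46 and 8.67 with tumors.

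The endothelial medians were -0.22 in complex I, -0.25 in II, -0.24 in III, -0.10 in IV and -0.21 in V. All 5 genes of the F1 part and all 4 Sdh genes were below 0, with the median of the F1 genes at -0.25. Ndufs4, an accessory subunit near the NADH-oxidising tip of complex I, had the lowest difference of the 79 genes. It was at 9.86, 9.89 and 9.69 without and 9.06, 9.20 and 9.10 with tumors, a log2 difference of -0.69 ± 0.30 (SE) or 1.62-fold lower, with an adjusted p of 0.696. Its tumor groups are far apart relative to their SDs of 0.11 and 0.07, but the test uses 1 spread for all 4 groups, and tumor-free osteoblasts had an SD of 0.77 for this gene. It had an adjusted p of 0.150 with the endothelial arrays alone and 0.0393 with array quality weights, and between 0.0393 and 1.00 over 23 alternatives.

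Uqcrc2, a core protein of complex III, was at 8.64, 8.56 and 8.84 without and 8.37, 8.35 and 8.13 with tumors (-0.40 ± 0.15 SE, adjusted p = 0.619). Ndufa1, a small accessory subunit needed for assembly of complex I, was at 9.95, 10.64 and 10.37 and then 9.89, 9.74 and 9.88 (-0.48 ± 0.20 SE, adjusted p = 0.653). In both, all tumor-bearing values lay below all tumor-free values. The groups did not overlap for 12 genes that were lower (10.9% of all genes) and 1 that was higher (7.84%). The 12 are Ndufa1, Ndufb11, Ndufs4, Sdha, Uqcrb, Uqcrc2, Cox5a, Atp5a1, Atp5g3, Atp5h, Atp5md and Atp5pb, and the 1 is Cox7a1.

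The endothelial markers averaged 10.5 to 10.6 on the tumor-free and 10.2 to 10.3 on the tumor-bearing endothelial arrays, without overlap, and 0 of 6 were called (1 lower at an unadjusted p under 0.05). The immediate early list averaged 9.56, 8.60 and 8.52 on the tumor-free arrays and 9.53 to 9.59 on the tumor-bearing ones, which overlap, and 0 of 9 were called (4 higher at an unadjusted p under 0.05). Their part in the lower member values was not tested. Leaving out any 1 of the 12 arrays kept the endothelial median between -0.27 and -0.12 and the number of genes called at 0.

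**Figure D3:**
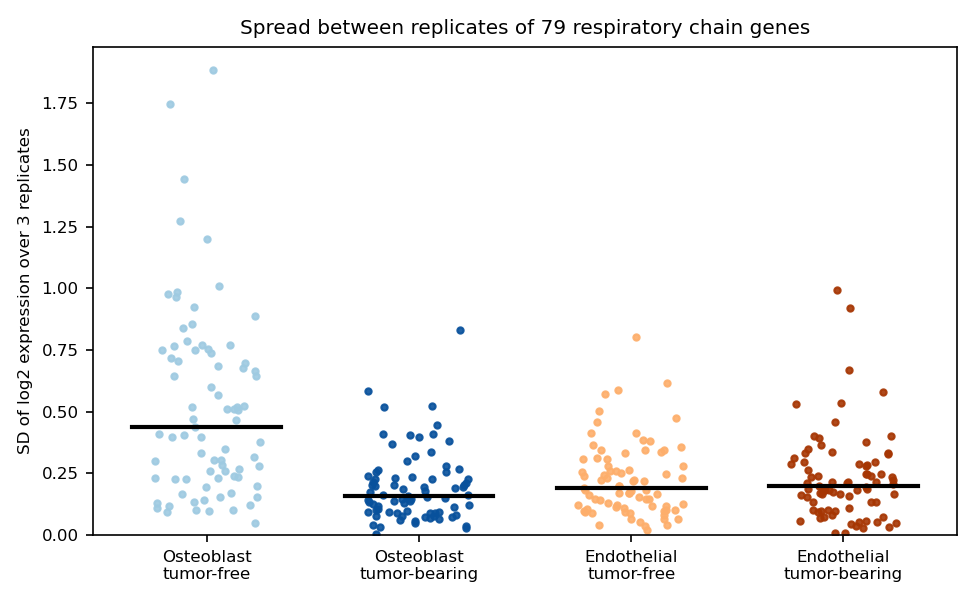
SD of log2 expression over the 3 replicates of a group for each of the 79 tested genes (points), with the median of each group as a line. The median SD was 0.44 in tumor-free osteoblasts and 0.16 to 0.20 in the other groups, and only tumor-free osteoblasts hold SDs above 1.

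The members varied most among the tumor-free osteoblast arrays. The median SD of the 79 genes was 0.44 there, against 0.33 for all genes tested. With tumors it was 0.16 in osteoblasts, and in endothelial cells it was 0.19 without and 0.20 with tumors. Tumor-free osteoblasts had the highest SD of the 4 groups for 51 of 79 members, including all 4 Sdh genes and 24 of 35 complex I genes. The same held for 6444 of the 12430 genes tested. The SD was above 1 for 6 members there, Ndufa6, Ndufb3, Ndufb6, Ndufs1, Ndufv1 and Cox4i1, and for none in the other groups. That is 7.59% of the members, where 9.40% of all genes tested had an SD above 1 in tumor-free osteoblasts. Ndufv1, which binds NADH and the flavin, was at 5.62, 8.22 and 4.89 on the 3 arrays, against 7.45 to 8.16 on all other 9. Ndufa6, an accessory subunit, was at 8.64, 8.38 and 5.26, and Cox4i1 at 8.14, 10.26 and 10.17.

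The deviating array was not the same for all genes. Replicate 1 lay more than 1 log2 unit below the median of its group for Atp5a1, Cox4i1, Ndufs8, Sdhc and Uqcrc1, and as far above it for Atp5md, Ndufa5 and Ndufb3. Replicate 2 lay as far above for Cox6b2, Ndufa7, Ndufv1 and Sdhb. Replicate 3 lay as far below for Atp5g3, Atp5pb, Ndufa6, Ndufb3, Ndufb6 and Ndufb9, and above for Ndufb7 and Ndufs1. So genes of 1 complex, such as Ndufb6 and Ndufb7, lay on opposite sides of their group medians on the same array. These are the arrays on which the macrophage, neutrophil and chondrocyte lists also differed most, and that link was not tested.

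The 4 genes of succinate dehydrogenase (complex II) show the same pattern. Sdha, the flavoprotein, was at 7.49, 9.03 and 8.33 in tumor-free osteoblasts and at 8.83, 8.65 and 8.54 with tumors. Sdhb, the iron-sulfur subunit, was at 6.93, 8.47 and 7.12 and then 7.57, 7.41 and 7.71. Sdhc, a membrane anchor, was at 6.78, 8.33 and 8.58 and then 8.06, 8.18 and 7.94. Replicate 1 was the lowest tumor-free array for these 3 genes, and in each the tumor groups overlap. Sdhd, the other anchor, was at 6.98, 6.56 and 6.17 and then 6.49, 6.46 and 6.40, with replicate 1 the highest. The osteoblast differences were 0.39, 0.06, 0.16 and -0.12 for Sdha, Sdhb, Sdhc and Sdhd, with adjusted p from 0.454 to 0.939. In endothelial cells Sdha was at 8.84, 8.89 and 8.47 without and 8.39, 8.21 and 8.23 with tumors, which do not overlap (-0.46 ± 0.31 SE, adjusted p = 0.909). The endothelial groups overlapped for Sdhb (7.46, 8.44 and 7.74, then 7.76, 7.40 and 7.76), Sdhc (8.53, 8.87 and 8.70, then 8.41, 8.59 and 8.46) and Sdhd (6.75, 6.68 and 6.38, then 6.51, 6.48 and 6.01).

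Between the cell types of tumor-free mice few respiratory chain genes were called. Of 79 genes, 6 passed the threshold (limma), 2 higher and 4 lower in endothelial cells (0 and 7 after quantile normalization, 5 and 3 with arrays centred on their medians), where 31.0% of all genes tested did, 18.2% higher and 12.7% lower. The members' share lies below that background. The 95% interval of the difference lay within 2-fold for 51 of the 79 genes and within 1.5-fold for 19. The median difference, endothelial minus osteoblast, was 0.06 against 0.03 for all genes tested and 0.30 for the 7961 brighter ones. It turned to -0.17 after quantile normalization, to -0.06 without tumor-free osteoblast replicate 3 and to -0.01 without tumor-free endothelial replicate 2. It was above 0 for all 4 complex II genes, with a median of 0.41, although none of them passed. The groups did not overlap for 7 genes that were higher and 8 that were lower in endothelial cells (23.1% and 24.2% of all genes).

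Ndufa13 was 1.66-fold lower in endothelial cells, at 7.46, 7.84 and 7.47 against 8.20, 8.46 and 8.31 in osteoblasts. Its log2 difference was -0.73 ± 0.17 (SE, adjusted p = 0.00957), and it passed in 23 of 23 alternatives. Ndufb2 was 2.26-fold lower, at 6.07, 6.81 and 6.96 against 7.99, 7.03 and 8.36 (-1.18 ± 0.33 SE, adjusted p = 0.0222). Atp5k was 1.55-fold lower, at 9.32, 9.92 and 9.53 against 10.52, 9.96 and 10.19 (-0.63 ± 0.20 SE, adjusted p = 0.0351). The gap between groups was narrow for Atp5k, 9.92 against 9.96 for the nearest arrays. Cox6a2, the heart and skeletal muscle isoform of a complex IV subunit, was 1.51-fold lower, at 6.66, 6.73 and 6.85 against 7.40, 7.23 and 7.41 (-0.60 ± 0.16 SE, adjusted p = 0.0197). The skeletal muscle list (9 of 9) averaged 5.27 to 5.39 on the tumor-free endothelial and 5.49 to 5.66 on the tumor-free osteoblast arrays, and its part in the Cox6a2 difference was not tested.

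The 2 genes that were higher in endothelial cells are Cox7a2l and Ndufa8. Cox7a2l, a complex IV relative that joins complexes III and IV into supercomplexes, was at 9.42, 9.29 and 9.40 against 9.09, 8.94 and 8.37, a 1.48-fold difference (0.57 ± 0.17 SE, adjusted p = 0.0321). Ndufa8, an accessory subunit facing the intermembrane space, was at 8.08, 8.12 and 8.16 against 7.86, 7.39 and 7.64, a 1.40-fold difference (0.49 ± 0.16 SE, adjusted p = 0.0415). In each, the lowest endothelial array lay above the highest osteoblast array. Of 23 alternatives, Cox6a2 and Ndufb2 passed in 18 each, Cox7a2l in 17, Atp5k in 13 and Ndufa8 in 11. Without tumor-free osteoblast replicate 3 the difference of Cox7a2l was 0.35, and after quantile normalization that of Ndufa8 was 0.17. Single arrays moved the count of 6. It was 1 without tumor-free endothelial replicate 1, 3 without endothelial replicate 2 or 3, and 10 without tumor-free osteoblast replicate 2. With osteoblast replicate 1 left out 9 genes passed, 5 of them among the 6, and without osteoblast replicate 3 the 5 that passed held 2 of the 6, Cox6a2 and Ndufa13. The same 2 passed with only these 6 arrays in the fit.

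**Figure D4:**
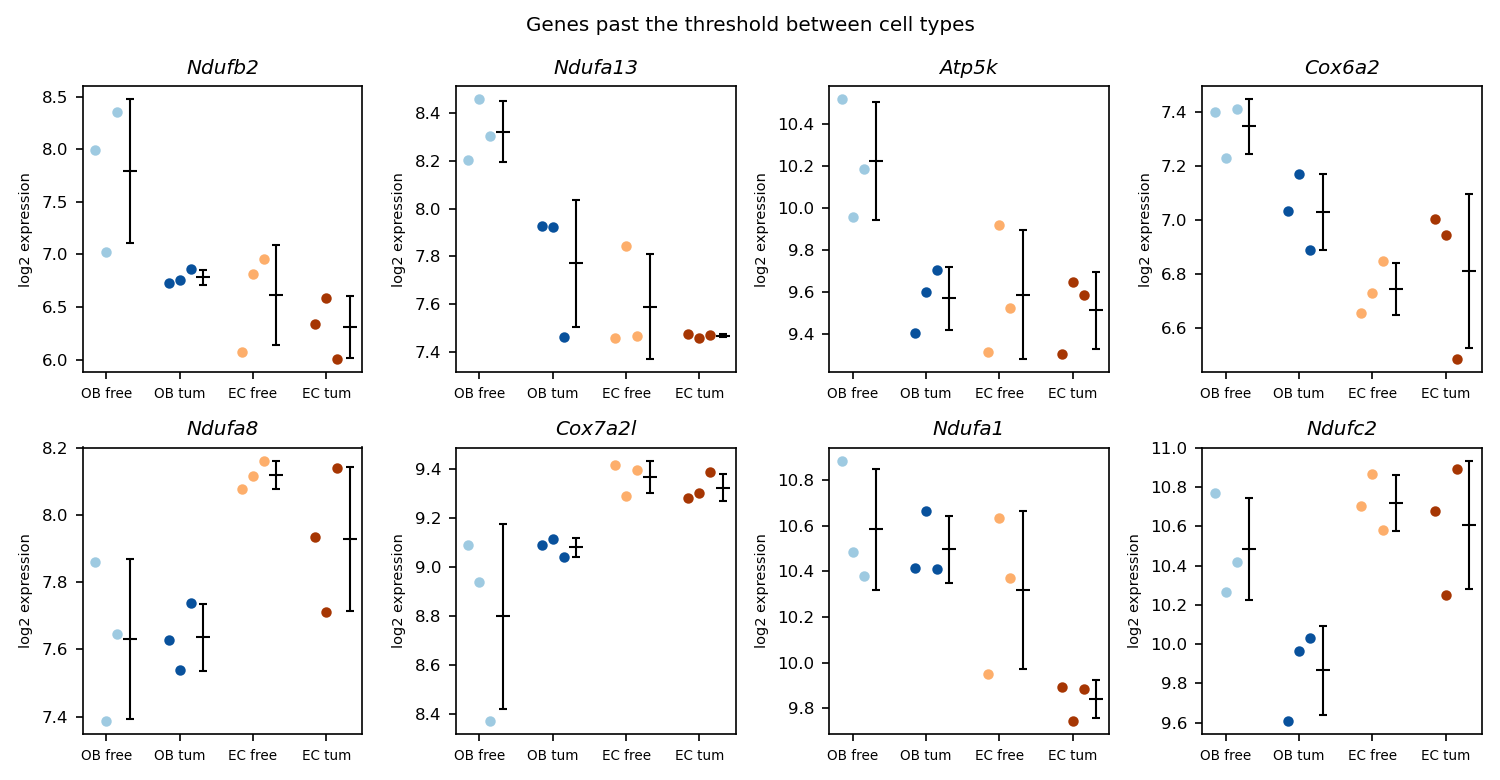
Log2 expression of the 8 genes past the threshold between cell types, one panel each, for osteoblasts (OB) and endothelial cells (EC) of tumor-free (free) and tumor-bearing (tum) mice. Points are arrays and bars the mean ± SD of 3 arrays. In the panels of Ndufb2, Ndufa13, Atp5k, Cox6a2 and Ndufa1 the tumor-free osteoblasts lie above the 3 other groups on average. In that of Cox7a2l the endothelial points all lie above the osteoblast points.

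In tumor-bearing mice 2 of 79 genes differed between the cell types, where 14.9% of all genes tested did. Ndufc2, an accessory subunit of the membrane arm, was 1.67-fold higher in endothelial cells, at 10.68, 10.25 and 10.89 against 9.61, 9.96 and 10.03 in osteoblasts (0.74 ± 0.21 SE, adjusted p = 0.0320). Ndufa1 was 1.58-fold lower, at 9.89, 9.74 and 9.88 against 10.41, 10.67 and 10.41 (-0.66 ± 0.20 SE, adjusted p = 0.0463). Of 23 alternatives Ndufc2 passed in 18 and Ndufa1 in 12. In tumor-free mice their differences were 0.23 and -0.26 (adjusted p = 0.392 and 0.312). The median over the 79 genes was -0.02, against 0.00 for all genes. The groups did not overlap for 8 genes that were higher and 4 that were lower in endothelial cells (19.5% and 16.3% of all genes). The count of 2 was 0 without endothelial replicate 1 or osteoblast replicate 1 or 2 of tumor-bearing mice. It was 1 without endothelial replicate 2 or osteoblast replicate 3 of tumor-bearing mice, tumor-free endothelial replicate 3 or tumor-free osteoblast replicate 2. Without endothelial replicate 3 of tumor-bearing mice 2 other genes passed, Atp5e and Ndufa4l2.

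The 6 genes called between cell types in tumor-free mice were not past the threshold in tumor-bearing mice. The log2 differences there were -0.30 for Ndufa13, -0.47 for Ndufb2, -0.06 for Atp5k, -0.22 for Cox6a2, 0.24 for Cox7a2l and 0.29 for Ndufa8, all with the sign seen in tumor-free mice. The change between the 2 conditions is the difference of the tumor differences, and it did not pass for any of these genes (adjusted p from 0.341 to 0.683). The tumor-free and tumor-bearing comparisons share no array. Over the 79 genes the difference between cell types had the same sign in both for 48 genes, 26 higher and 22 lower in endothelial cells.

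The difference of the tumor differences, endothelial minus osteoblast, was past the threshold for 0 of 79 genes (limma), where 0.209% of all genes tested were. At an unadjusted p under 0.05 there was 1 gene that was higher (5.63% of all genes) and 0 that were lower (10.4%). It was Ndufs7, at 1.04 ± 0.47 (SE, adjusted p = 0.305). Ndufs7 was 0.99 lower with tumors in osteoblasts and 0.06 higher in endothelial cells, where it stood at 6.98, 6.75 and 6.81 without and 6.91, 6.87 and 6.93 with them. The median was -0.10 against -0.05 for all genes, and all 4 complex II genes and all 5 F1 genes were below 0. On tumor-free osteoblast replicate 1, Sdha, Sdhb, Sdhc, Atp5a1 and Atp5b had the lowest value of their group. Sdhd, Atp5c1 and Atp5e had the highest there, and Atp5d lay between. Without tumor-free osteoblast replicate 1, Atp5md and Ndufs4 passed, and without replicate 2 Ndufv1 did. The tumor differences of the cell types, which share no array, were both below 0 for 41 genes and both above 0 for 8. For 23 genes osteoblasts were above and endothelial cells below 0, and for 7 the reverse. Over the 79 genes their Pearson correlation was 0.32 and their Spearman correlation 0.12, given as a description over genes that share arrays.

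**Figure D5:**
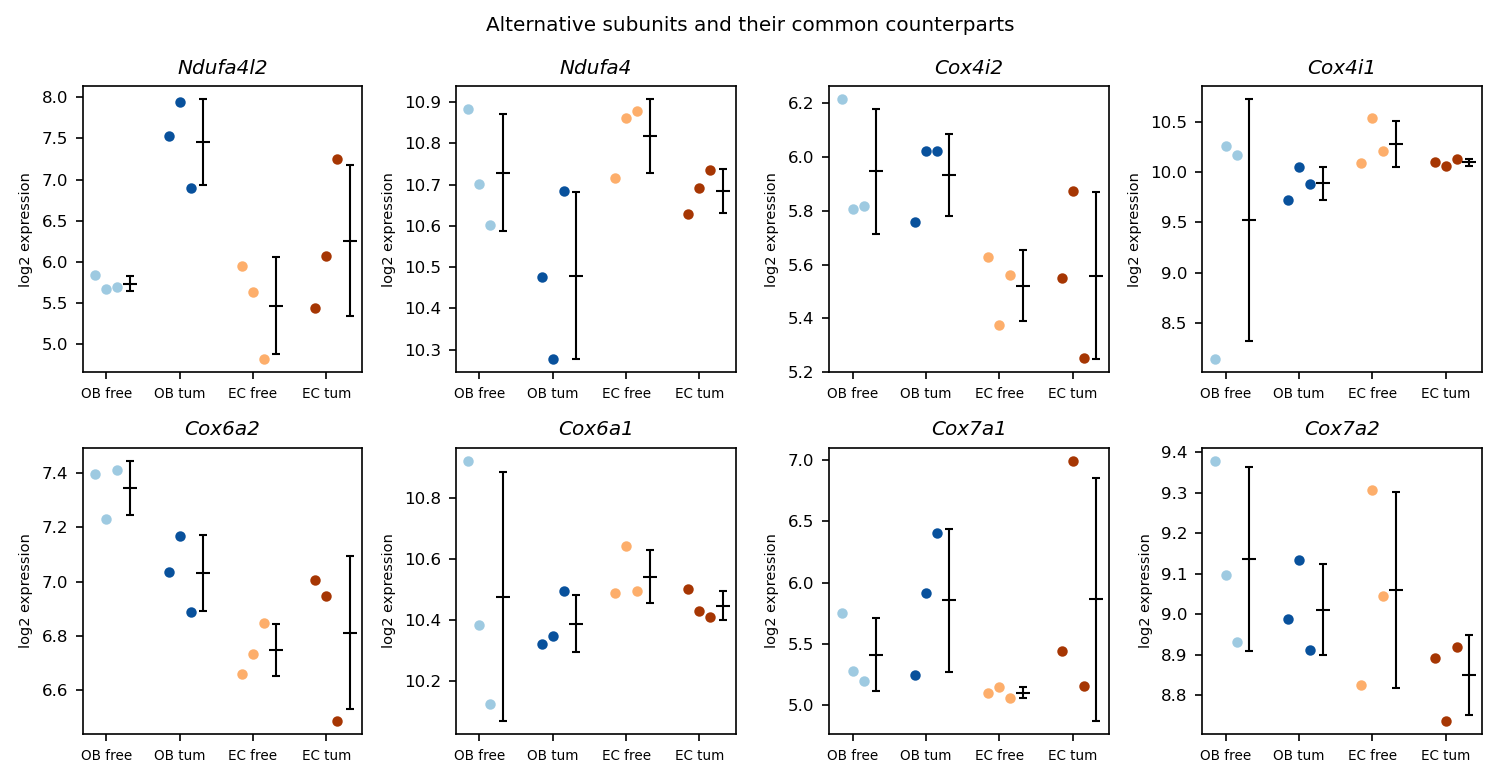
Log2 expression of 4 alternative subunits (Ndufa4l2, Cox4i2, Cox6a2, Cox7a1) beside their common counterparts (Ndufa4, Cox4i1, Cox6a1, Cox7a2), for osteoblasts (OB) and endothelial cells (EC) of tumor-free (free) and tumor-bearing (tum) mice. Points are arrays and bars the mean ± SD of 3 arrays, and each panel has its own axis. Ndufa4l2 is highest in osteoblasts of tumor-bearing mice, and single arrays set the spread of Cox4i1 and Cox7a1.

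Complex IV holds most of the subunits with alternative isoforms. Cox4i2, an isoform known from lung and from cells at low oxygen, was at 6.21, 5.81 and 5.82 in tumor-free osteoblasts and at 5.76, 6.02 and 6.02 with tumors. The difference was -0.01 ± 0.19 (SE), with a 95% interval from -0.43 to 0.40. The osteoblast values of Cox4i2 lie not far above the medians of all probe sets on these arrays, 5.28 to 5.41. Whether the tumor differences of Cox4i2 and Ndufa4l2 differ from each other was not tested. In endothelial cells Cox4i2 was at 5.63, 5.38 and 5.56 without and 5.55, 5.87 and 5.25 with tumors, also overlapping. With tumors the common Cox4i1 was at 9.72, 10.05 and 9.88 in osteoblasts and at 10.10, 10.06 and 10.13 in endothelial cells, where it was at 10.09, 10.54 and 10.21 without them. Its tumor-free osteoblast values, given above, include 1 low array.

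The muscle isoform Cox6a2 was at 7.03, 7.17 and 6.89 in osteoblasts of tumor-bearing mice, below all 3 tumor-free arrays (-0.31 ± 0.16 SE, adjusted p = 0.257), and with tumors at 7.0, 6.95 and 6.49 in endothelial cells. The common Cox6a1 was at 10.92, 10.38 and 10.12 in tumor-free osteoblasts, 10.32, 10.35 and 10.49 with tumors, 10.49, 10.64 and 10.49 in tumor-free endothelial cells and 10.50, 10.43 and 10.41 with tumors. Its tumor differences were -0.09 and -0.10 in osteoblasts and endothelial cells, and in both the groups overlap.

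Cox7a1, a muscle and brown fat isoform, was at 5.75, 5.28 and 5.2 in tumor-free osteoblasts and 5.24, 5.92 and 6.41 with tumors. In endothelial cells it was at 5.10, 5.14 and 5.06 without and 5.44, 7.0 and 5.15 with tumors, so its difference of 0.76 ± 0.43 (SE, adjusted p = 0.827) rests mainly on replicate 2. The common Cox7a2 was at 9.38, 9.10 and 8.93 and then 8.99, 9.13 and 8.91 in osteoblasts, and at 8.82, 9.31 and 9.05 and then 8.89, 8.74 and 8.92 in endothelial cells. With tumors Cox7a2l was at 9.09, 9.12 and 9.04 in osteoblasts and at 9.28, 9.30 and 9.39 in endothelial cells. There too all 3 endothelial arrays lay above the osteoblast arrays (0.24 ± 0.17 SE, adjusted p = 0.461).

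The testis isoform Cox6b2 was at 6.04, 7.68 and 5.97 and then 6.23, 6.76 and 7.86 in osteoblasts, and at 5.95, 6.05 and 6.53 and then 5.68, 6.71 and 6.43 in endothelial cells. The common Cox6b1 was at 10.82, 11.53 and 11.46 and then 11.30, 11.40 and 11.30 in osteoblasts, and at 11.54, 11.74 and 11.69 and then 11.50, 11.57 and 11.42 in endothelial cells. In both genes the tumor groups overlap in each cell type. Cox8b, the muscle form, was at 5.5, 5.05 and 5.38 and then 4.89, 5.26 and 5.38 in osteoblasts and at 6.20, 5.05 and 4.66 and then 4.98, 5.2 and 4.73 in endothelial cells, values near the array medians. Cox8a, the common form, was at 7.72, 8.27 and 7.23 and then 7.85, 8.18 and 7.99 in osteoblasts, and at 7.49, 7.96 and 7.94 and then 7.95, 7.96 and 7.96 in endothelial cells. The Cox8 groups overlap as well, and none of these 4 genes passed in any comparison.

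Genes around the chain were counted from lists. At an unadjusted p under 0.05, 14.6% of all genes tested were higher and 9.88% lower in osteoblasts with tumors. In endothelial cells it was 3.28% and 3.64%. Of 37 assembly factors tested, 1 was called lower in osteoblasts with tumors, Dmac1, an assembly factor of complex I, which fell 2.86-fold (log2 difference -1.51 ± 0.33 SE, adjusted p = 0.0299), and none was higher. In endothelial cells 0 of 37 passed (3 lower and none higher at an unadjusted p under 0.05), 30 were below 0, and the median was -0.24. Of 76 mitochondrial ribosomal protein genes, 0 passed in either cell type (8 lower in osteoblasts and 6 in endothelial cells at an unadjusted p under 0.05). In endothelial cells 64 of them were below 0 with a median of -0.22, a count close to that of the respiratory chain, and in osteoblasts 43 were below 0 with a median of -0.15. Without tumor-free osteoblast replicate 1, 3 of them were called higher and 2 lower, without replicate 2 or 3, 1 was called lower, and the median ran from -0.21 to -0.02. Of 15 genes of the tricarboxylic acid cycle, 1 rose in osteoblasts, Ogdh, the E1 subunit of 2-oxoglutarate dehydrogenase (1.99-fold, adjusted p = 0.0433). Neither Dmac1 nor Ogdh passed without tumor-free osteoblast replicate 3, and the 37 and 15 genes of these lists held 2 or 3 and 0 to 3 calls when 1 such array was left out. Both counts of 1 lie near the 4.59% of all genes called. In the tricarboxylic acid cycle 0 passed in endothelial cells (1 lower at an unadjusted p under 0.05), where the median was -0.01.

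Of the lists around the chain, glycolysis, the other main source of ATP, held the most genes called in osteoblasts. Of 15 genes tested 5 rose and none fell, where 4.59% of all genes were called, with a median of 0.64 and 14 of 15 above 0. The immediate early list was higher on the same arrays, as given above. The chondrocyte list had 6 of 6 genes above 0 in this comparison, 1 of them called, with a median of 1.97. The part of either list was not tested. Hk2, a hexokinase, rose 6.10-fold (log2 difference 2.61 ± 0.39 SE, adjusted p = 0.00757), Tpi1, triosephosphate isomerase, 2.72-fold (adjusted p = 0.00989) and Slc2a1, the glucose transporter GLUT1, 4.39-fold (adjusted p = 0.0173). Leaving out tumor-free osteoblast replicate 1, 2 or 3 gave 8, 7 and 3 genes, all higher, with Hk2, Tpi1 and Slc2a1 in each. In endothelial cells 0 of 15 passed (1 higher and 1 lower at an unadjusted p under 0.05), with a median of 0.07. Of 13 regulators of mitochondrial genes 0 passed in either cell type. At an unadjusted p under 0.05, 3 were higher and 1 lower in osteoblasts (14.6% and 9.88% of all genes). In endothelial cells 1 was higher (3.28%). The osteoblast and endothelial medians were 0.64 and -0.13. The osteoblast median was 0.55, 0.37 and 0.28 without tumor-free replicate 1, 2 and 3, and 3 regulators passed without replicate 1 (Hif1a, Myc and Tfb1m) and 1 without replicate 3 (Tfb2m), all higher. The 6 subunits and carriers that the rule leaves out had medians of 0.00 and -0.13, the 6 nucleotide and phosphate carriers and porins 0.19 and -0.16, and none of these passed. Of 67 tested genes with symbols that begin with Rpl or Rps, most of them cytosolic ribosomal proteins, 1 rose in osteoblasts, Rps6ka3, which encodes a kinase and no ribosomal protein. Of the 13 protein genes of mitochondrial DNA 2 were measured, for subunits of complexes I and IV, and neither passed, with medians of -0.10 in osteoblasts and -0.03 in endothelial cells.

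Of the 81 members 16 have more than 1 probe set. The unused probe sets disagreed in sign with the one used for 7 of 16 genes in the osteoblast tumor comparison, 6 in the endothelial one, 7 between the tumor-free cell types and 4 between the tumor-bearing ones. Atp5g2 and Atp5md are among them in all 4 comparisons. For Atp5md, 1 unused probe set had tumor differences of -0.88 in osteoblasts and 0.43 in endothelial cells, and another -0.05 and -0.11. The probe set used for Atp5md had 0.09 and -0.32. Of the 8 genes called between cell types only Cox7a2l has a second probe set, which did not disagree in sign. Many of these genes have processed pseudogenes of nearly the same sequence, so signal shared with such copies cannot be told apart here. A further 6 probe sets carry several symbols, among them those of Cox7c and Ndufb4, and named no gene.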

How the data were processed

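Per the labels' protocols, a Pico Pure kit gave the RNA of the sorted cells, which was amplified by SPIA and labelled with biotin. For 34760 probe sets and 12 arrays the deposited values are log2 expression (1.55 to 12.9). The submitters' processing notes name affy; its version and how background and scale were treated were not stated in the sources used. The number of arrays limits the precision.

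Groups came from the titles. Probe sets with 1 symbol in the annotation table were used, 1 per gene (the highest mean over 12 arrays), and a gene was tested if it was brighter than the array's median on at least 3 arrays. limma 3.58.1 in R 4.3.3 fitted 4 group means to all 12 arrays (8 residual and 2.89 prior degrees of freedom). Tests are two-sided, Benjamini-Hochberg adjusted over 12430 genes, with a threshold of 0.05. 0 of 66 array pairs held identical values. The script was tested on simulated data.

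Per-array values are given for members past the threshold, the isoform genes, the Sdh genes and others with a low p, of which Cox5a, Cox5b, Ndufs4, Ndufs7, Ndufv1, Ndufa6, Uqcrb and Uqcrc2 were chosen after their values were seen. From other lists up to 3 called genes are named. The members and lists were chosen with earlier results of these data known. Alternatives were a replicate block, quantile normalization, median centring, other filters, averaged probe sets, an intensity trend, array weights, only the groups compared and leaving out arrays. After seeing the data, 2 were added: weights per group, and a fit that leaves out replicate 1 of both tumor-free groups. Counts of the other lists without single tumor-free osteoblast arrays were also added then.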

Additional observations from a re-analysis of the deposited data

Results flagged for a closer look

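Cox8c, the testis isoform of a complex IV subunit, was flagged because its tumor groups lay apart in opposite directions in the 2 cell types. It was picked by a search of all members for this pattern, and the share of all genes with such a pattern was not counted. It was at 5.19, 5.55 and 4.91 (log2 expression) in tumor-free osteoblasts and at 4.34, 4.60 and 4.76 with tumors, so that every tumor-bearing array lay below every tumor-free array. In endothelial cells it was at 4.34, 4.43 and 4.55 without and 4.61, 4.70 and 4.62 with tumors, so that every tumor-bearing array lay above. The endothelial tumor difference exceeded that of osteoblasts by 0.86. The difference was not tested, since Cox8c lay below the brightness filter, at or under the median of all probe sets on most arrays.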

How the results depend on the processing

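For 21 single-gene differences (members with an adjusted p under 0.1, and in endothelial cells with tumors those with an unadjusted p under 0.05) 23 alternatives were run, and none of these changed direction. Other genes named were not followed through them. In osteoblasts 0 members were called between tumor-bearing and tumor-free mice. The count was 3 after quantile normalization, 1 with arrays centred on their medians, 1 with no filter on dim genes, 1 with a filter at the 70th percentile, 1 with an intensity trend and robust estimation, 1 with array quality weights and 4 with replicate 1 left out of the tumor-free groups of both cell types. The endothelial count of 0 was 1 with array quality weights (Ndufs4). Between the cell types the count of 6 in tumor-free mice was 2 with only the groups compared. The count of 2 in tumor-bearing mice was 1 with arrays centred on their medians, 1 with no filter and 9 with array quality weights. The cause was not tested. Leaving out each array gave 0 to 5 members in osteoblasts, 0 in endothelial cells, 1 to 10 and 0 to 3 between cell types in tumor-free and tumor-bearing mice, and 0 to 2 for the difference of the tumor differences.

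Replicate numbers are shared by the groups, but same-numbered arrays did not deviate together: correlations of their deviations ran from -0.26 to 0.11, over 0.1 in 1 of 18 pairs. With the replicate number as a block the count of 2 between cell types in tumor-bearing mice was 0, and that in tumor-free mice 5.

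Of the medians, that between cell types in tumor-free mice was 0.06 and turned to -0.17 after quantile normalization, with a range from -0.06 to 0.13 when single arrays were left out. In the same order of leaving out arrays, the medians ranged from -0.19 to -0.06 in osteoblasts, -0.27 to -0.12 in endothelial cells, -0.03 to 0.02 between cell types in tumor-bearing mice and -0.15 to 0.02 for the difference of the tumor differences. The latter was 0.08 after quantile normalization. The osteoblast median was -0.20 and -0.03 and the endothelial median -0.17 and -0.26 after quantile normalization and median centring. Centring moved the median of all genes from 0.03 to 0.18 between the tumor-free cell types and from -0.05 to -0.15 for the difference of the tumor differences.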

Other observations

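Other mitochondrial lists also held genes that differed between the cell types of tumor-free mice, where 31.0% of all genes tested did. Of 15 genes of the tricarboxylic acid cycle 4 were higher in endothelial cells and 1 lower (limma). Cs, citrate synthase, was 1.82-fold higher (adjusted p = 0.00183), Ogdh 2.51-fold (adjusted p = 0.00266) and Dld, the dihydrolipoamide dehydrogenase, 2.24-fold (adjusted p = 0.00677), and the list had a median of 0.47, which was 0.15, 0.62 and 0.32 without tumor-free osteoblast replicate 1, 2 and 3. Of 13 regulators of mitochondrial genes 3 were higher in endothelial cells and none lower. Of all genes tested 18.2% were called higher and 12.7% lower. The regulators had a median of 0.24, which was 0.45, 0.44 and -0.04 without tumor-free osteoblast replicate 1, 2 and 3. Gabpa, the DNA-binding subunit of GABP, was 2.56-fold higher (adjusted p = 0.0102), Tfam, the packaging factor of mitochondrial DNA, 2.36-fold (adjusted p = 0.0199) and Yy1 1.62-fold (adjusted p = 0.0214). Of 76 mitochondrial ribosomal protein genes 8 were higher and 2 lower, with a median of 0.05. Without tumor-free osteoblast replicate 1, 2 and 3 it was 12 higher and 5 lower, 10 and 4, and 7 and 5, and the median turned to -0.04 without replicate 3. When 1 tumor-free osteoblast array was left out, 4 or 5 genes of the first list were higher, with Cs, Ogdh, Dld and Fh1, fumarase, in each, and 3 or 4 regulators were, with Gabpa and Yy1 in each. Tfam passed without replicate 1 and not without replicate 2 or 3. Whether the lists differ from the respiratory chain was not tested.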
